A study of Mus musculus with 8 samples.

Results

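The account covers 32 genes of DNA replication and S phase, the part of the cell cycle in which the genome is copied. They were taken as a list of origin licensing, replication fork, nucleotide supply and G1/S genes, and each was found by mapping the gene identifiers of the deposited table to GENCODE M21 symbols. The table held all 32, among 25367 genes, and all 32 passed the filter on low counts, with 1102 to 44314 counts per gene and library. The RNA came from group 2 innate lymphoid cells (ILC2s), lymphocytes without rearranged antigen receptors that secrete type 2 cytokines. The cells, sorted from large intestines of wild-type C57BL/6 mice, were expanded in culture for 5 days. Both groups received the cytokines IL-33, IL-25, IL-7 and IL-2 at 10 ng/mL apiece. Vehicle (4 libraries) or SC-57461A (4 libraries), an inhibitor of the leukotriene-producing enzyme LTA4 hydrolase, was then present for 16 h. The compound's dose, the age of the mice and any pooling of animals are stated in no source used here. No label says that replicates were separate cultures or animals, so p-values speak only of the variation among these 8 libraries, which may be technical.

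Libraries held 47376196 to 71155654 counts. They fell into 2 sets of 4 by their summed FPKM (fragment counts scaled to transcript length and library size), with 2 libraries of each treatment in each set. Set A (vehicle replicates 1 and 2, SC-57461A replicates 2 and 3) summed to 390628 to 428541 and set B (vehicle replicates 3 and 4, SC-57461A replicates 1 and 4) to 316414 to 336044. Transcripts under 1 kb took 10.9 to 13.1% of the counts in set A and 5.78 to 7.14% in set B. The sets are not a batch named in the labels, and results are given both without and with library set as a term. All 12 ILC2 markers were detected. In set A they summed to 18401 to 19178 CPM (counts scaled to library size, with TMM factors) in vehicle and 19949.7 to 20832 CPM in treated libraries. In set B the sums were 15119 to 15660.0 and 17299.8 to 17969 CPM, so that treated libraries were the higher in each set. Il13, Il5 and Il2ra held the largest parts of the sums in every library, and not all markers rose. In set A Il1rl1 had 2459 and 2354 CPM in vehicle and 1936 and 2034 CPM in treated libraries. With library set as a term, 3 of the 12 estimates were below 0. In the model with library set Il5, Il2ra and Id2 were higher with SC-57461A and Gata3 lower (adjusted p under 0.05). Of 8 epithelial markers, Krt8, Krt19 and Cdh1 were at 0 throughout set B, and the 8 summed to 15.9 to 23.8 CPM in vehicle and 39.4 to 44.7 CPM in treated libraries of set A. In set B they summed to 13.9 to 16.0 CPM in vehicle and 9.18 to 13.0 CPM in treated libraries. Krt8, Krt19 and Muc2 passed as higher in the model with library set. The 8 myeloid markers summed to 29.7 to 51.8 CPM in set A and 6.04 to 8.06 in set B, where 5 of them were at 0. T cell markers (6 genes) summed to 10.4 to 18.3 CPM, those of B cells (5 genes) to at most 2.81 and those of mast cells (3 of 5 in the table) to at most 0.337. Of 6 genes of endothelium and stroma, Pecam1 had 63.0 to 81.7 CPM; the other 5 had at most 3.56 CPM, and Cdh5, Kdr and Dcn were at 0 throughout set B. The part of these other cells in the results was not tested.

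Replication begins when Cdc6 and Cdt1 load the ring of Mcm2 to Mcm7 onto origins in G1, which licenses them. In S phase Cdc45, the GINS complex and Mcm10 turn the ring into an active helicase, and polymerases alpha, delta and epsilon copy the opened strands with the clamp PCNA, while Fen1 and Lig1 join the lagging strand fragments. E2F transcription factors are known to switch on many of these genes at the G1/S border. In bulk RNA, fewer cells in S phase and less RNA per cell cannot be told apart.

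The promoters of the genes are shown because E2F words are the best known shared feature of such genes and because the members that carry one are set beside those that do not after the results. RefSeq promoter sequences (build GRCm38.p6, 250 bases before to 50 bases after the start site) were at hand for 26 of the 32 genes; Mcm4, Gins2, Ccne2, Pole, Exo1 and Tipin had no entry. The words TTTCCCGC, TTTCGCGC, TTTGCCGC and TTTGGCGC were searched on both strands; the words of opposite strands can overlap, as they do in Mcm5 and Mcm6. In the lines that follow, read 5′ to 3′ on the gene's own strand, capitals mark E2F words of Lig1, Pold1, Cdt1 and Mcm6, which passed the set-adjusted test, and of the Mcm3, Mcm5, Mcm7 and Cdc6 genes of the licensing group.
Lig1, chr7:13278841-13278870, plus strand: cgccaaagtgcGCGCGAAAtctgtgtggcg
Pold1, chr7:44548766-44548795, minus strand: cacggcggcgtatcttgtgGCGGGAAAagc
Cdt1, chr8:122568035-122568064, plus strand: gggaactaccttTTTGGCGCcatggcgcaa
Mcm6, chr1:128359706-128359825, minus strand: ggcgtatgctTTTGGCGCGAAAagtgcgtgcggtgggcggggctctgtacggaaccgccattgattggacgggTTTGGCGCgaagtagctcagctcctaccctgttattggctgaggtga
Mcm3, chr1:20820275-20820304, minus strand: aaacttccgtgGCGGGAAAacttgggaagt
Mcm5, chr8:75109347-75109376, plus strand: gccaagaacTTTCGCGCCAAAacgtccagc
Mcm7, chr5:138172030-138172059, minus strand: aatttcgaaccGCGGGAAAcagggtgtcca
Cdc6, chr11:98908002-98908031, plus strand: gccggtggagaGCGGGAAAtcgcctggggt
Mcm3 and Mcm7 each hold another word outside the bases shown, which begins 39 and 17 bases from the start site. The Mcm6 stretch is the 120 bases before the start site and holds a pair of overlapping words and a separate one. The words of Lig1, Pold1 and Cdt1 lay 27, 40 and 33 bases from the start site, counted from 1 at the start site itself, inside the transcribed part; that of Lig1 belongs to 1 of its 3 RefSeq start sites.

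An E2F word was found in 11 of the 26 genes (Mcm3, Mcm5, Mcm6, Mcm7, Cdc6, Cdt1, Uhrf1, Pola1, Pold1, Lig1 and Dtl), or 42.3%, against 2.60% of the 27025 genes with a promoter in the table and 4.68% of the 10377 among them that were tested. The NF-Y word CCAAT stood in 17 of 26 (65.4%, against 41.1% of all genes and 42.6% of those tested) and the CHR word TTTGAA in 3 of 26 (11.5%, against 20.2% and 14.3%). These are matches of letters, not measured binding.

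On the per-length scale of the authors' FPKM, the genes spanned a wide range of levels in vehicle libraries. Pcna, the sliding clamp, stood at 180.4 ± 12.8 FPKM (SD, n = 4 here and below) and Rrm2, the small subunit of ribonucleotide reductase, at 179.8 ± 20.7, which placed them at ranks 293 and 295 of the 15095 genes tested. At the other end were Exo1, an exonuclease of mismatch and break repair, at 3.11 ± 0.613 FPKM and Dtl, the receptor that sends Cdt1 for degradation in S phase, at 3.68 ± 0.593. The place of Dtl rests on the length behind the FPKM, which no source used here states: counts and FPKM together imply 15536 bases, 3.31 times its longest annotated transcript (4693 bases), where the ratio was 0.745 to 2.01 for the other 31 genes. Without regard to length Dtl had 56.2 ± 6.01 CPM, the eighth lowest of the 32 means. Of the 32 genes, 10 ranked in the top 1000 and 25 in the top 5000. Among Mcm2 to Mcm7, whose proteins form 1 ring in equal number, vehicle means ran from 55.3 ± 14.8 FPKM for Mcm6 to 85.5 ± 18.1 for Mcm5, with Mcm5 above Mcm6 in each of the 4 vehicle libraries. The catalytic subunits of the 3 polymerases were far lower, with Pola1 at 8.11 ± 2.08, Pole at 9.24 ± 3.19 and Pold1 at 24.4 ± 2.53 FPKM, while Lig1 and Fen1, which finish the lagging strand, stood at 55.7 ± 6.55 and 48.5 ± 5.89. Mcm10 was low (8.80 ± 1.38 FPKM) beside Cdc45 (37.3 ± 3.53). These contrasts, too, rest on the lengths behind the FPKM. In CPM they were smaller, and that between Pold1 and Fen1 was absent. Vehicle means were 75.4 CPM for Mcm10 and 93.8 for Cdc45. Pola1, Pole and Pold1 had 79.2, 114 and 132 CPM, against 265 for Lig1 and 131 for Fen1. Part of the spread within a treatment separated the library sets: the Pole values were 6.61 and 6.40 FPKM in vehicle replicates 1 and 2 (set A) and 11.4 and 12.6 in vehicle replicates 3 and 4 (set B), with no overlap.

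**Figure D1:**
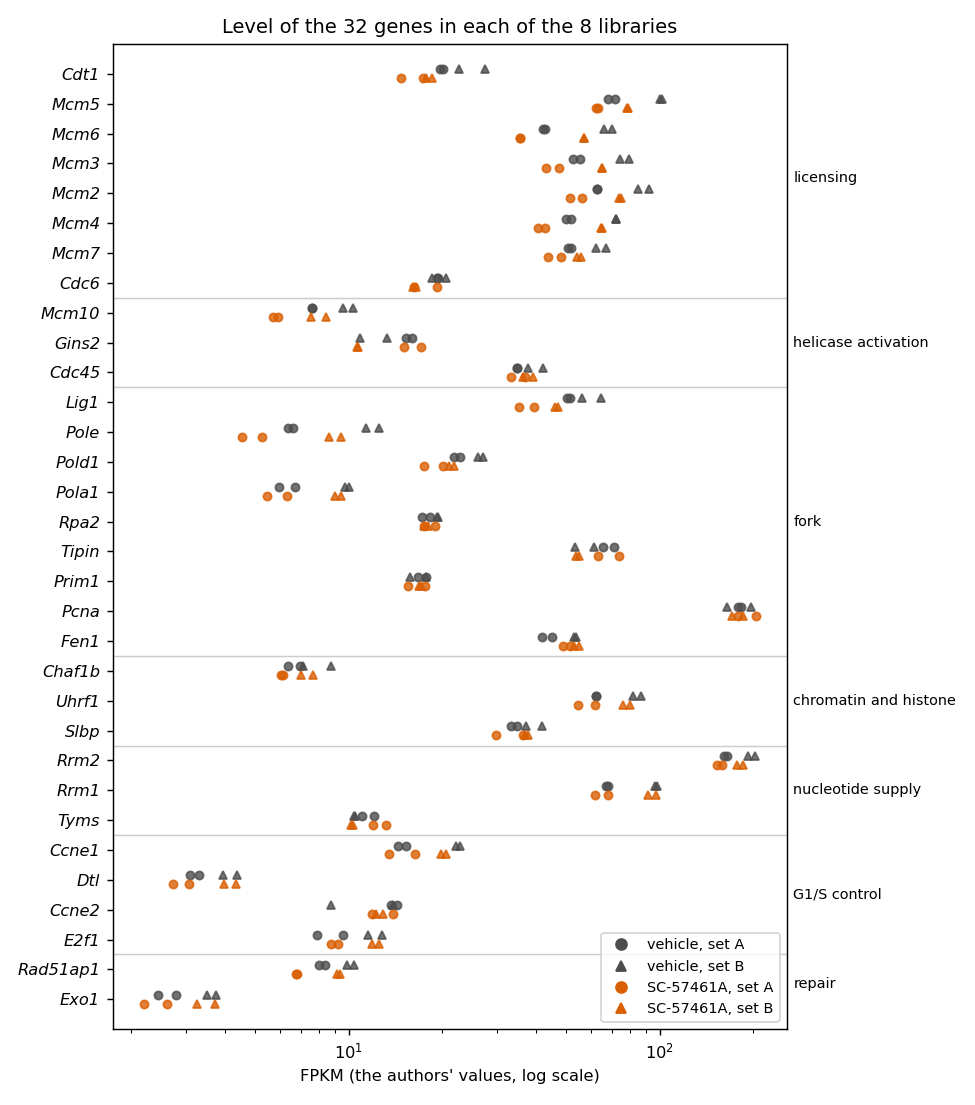
FPKM (log axis) of each of the 32 genes in each of the 8 libraries, 1 point per library, circles for set A and triangles for set B, grouped by role. Pcna and Rrm2 lie highest and Exo1 and Dtl lowest, and for Pole the set B triangles stand to the right of the set A circles within each treatment.

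Compared over all 8 libraries without library set, no gene of the 32 passed the edgeR quasi-likelihood test of SC-57461A against vehicle (adjusted p under 0.05 over 15095 genes); 0.331% of all tested genes did. The lowest adjusted p was 0.351, for Lig1. At an unadjusted p under 0.05 there were 4 of 32, all lower (Lig1, Cdt1, Pold1 and Mcm10), and 1008 of all 15095 genes. DESeq2 in the same design called 1, Lig1 (adjusted p = 0.0214), and limma on log2(FPKM + 1) called none. The standard errors of the 32 genes in this fit were 0.089 to 0.26 on the log2 scale, against 0.057 to 0.13 once library set was a term.

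With library set as a term (the set-adjusted model), 6 of the 32 genes fell and none rose: Lig1, Pole, Mcm10, Cdt1, Pold1 and Mcm6. That is 18.75%, where 2.5% of all tested genes were lower and 2.83% higher. Since the 32 genes were chosen with earlier results of these data known, the shares in this paragraph are descriptions, not independent evidence. At an unadjusted p under 0.05 there were 12, all lower, or 37.5%, where 3374 of all 15095 genes (22.4%) lay under it, 1690 of them lower. The median change of the 32 was -0.065 on the log2 scale, with 25 of 32 (78.1%) below 0, against 0.0044 and 49.1% for all tested genes. Over the set-adjusted model and its 17 alternatives, 21 to 28 members lay below 0. Summed over the 32 genes, vehicle replicates 1 to 4 had 5022, 5017, 5686 and 5747 CPM and SC-57461A replicates 1 to 4 had 5132, 4606, 4895 and 5239 CPM, with set B above set A in either treatment; the treatments overlapped over all 8 libraries. Counted without a model, the 4 SC-57461A libraries all lay below the 4 vehicle libraries in CPM for Lig1, Pold1, Cdt1 and Mcm7, 12.5% of the genes against 3.13% of all tested genes. Within each set, both SC-57461A libraries lay below both vehicle libraries for 12 genes (Mcm2 to Mcm7, Mcm10, Cdt1, Lig1, Pole, Pold1 and Rad51ap1), 37.5% against 10.3%, and above them for none, against 9.63%. All CPM levels of genes and lists, above and below, are scaled with TMM factors.

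**Figure D2:**
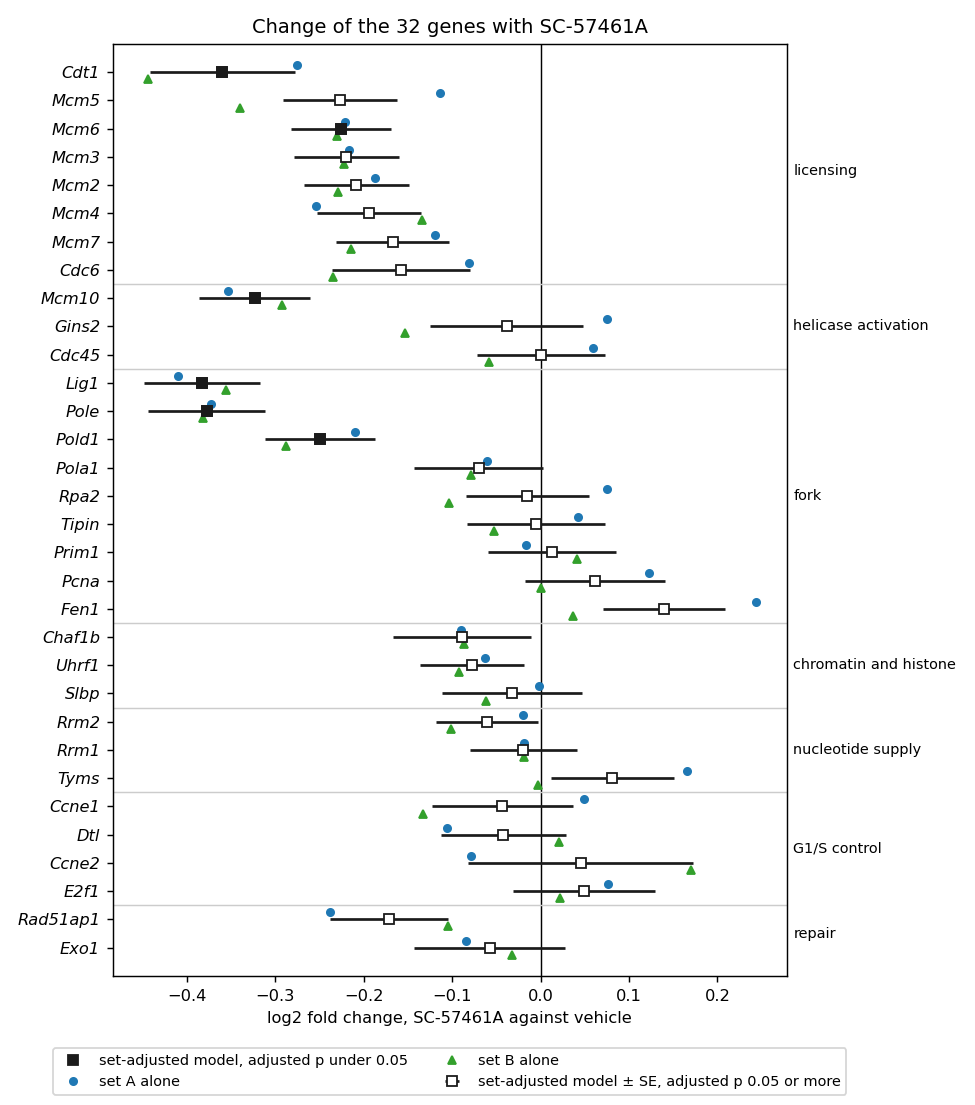
log2 fold change of each gene, SC-57461A against vehicle, grouped by role. Squares with bars are the set-adjusted model ± SE, filled for the 6 genes with an adjusted p under 0.05, circles are set A alone and triangles set B alone; the licensing genes all lie left of 0, and the nucleotide supply and G1/S genes lie close to it.

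In the licensing group every gene had a negative estimate, and Cdt1 and Mcm6 fell in the set-adjusted model. Cdt1 (chr8:122568015-122573128, plus strand; mm10 here and below), which brings the Mcm ring to origins together with Cdc6, stood at 50.7, 51.6, 52.6 and 63.9 CPM in vehicle replicates 1 to 4 and at 41.3, 44.9, 39.4 and 44.6 CPM in SC-57461A replicates 1 to 4. All treated libraries were below all vehicle libraries, and vehicle replicate 4 was the highest. The change was -0.36 ± 0.082 (log2, SE), or 22.1% lower (adjusted p = 0.0301), with -0.28 in set A alone and -0.44 in set B alone. Mcm6 (chr1:128331590-128359664, minus strand), a subunit of the helicase ring, had 233, 235, 328 and 348 CPM in the vehicle libraries and 285, 197, 203 and 292 CPM in the treated ones. The treatments overlapped over all 8 libraries, since set B was high in both, and separated within each set. The set-adjusted change of Mcm6 was -0.23 ± 0.057 (adjusted p = 0.0428), from -0.22 in set A alone and -0.23 in set B alone. Without library set the fit gave -0.23 (adjusted p = 0.963).

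The other ring subunits had estimates of nearly the same size that did not pass: -0.22 ± 0.059 for Mcm3 (adjusted p = 0.0541), -0.23 ± 0.064 for Mcm5 (0.0639), -0.21 ± 0.060 for Mcm2 (0.0666), -0.19 ± 0.059 for Mcm4 (0.0819) and -0.17 ± 0.064 for Mcm7 (0.152). The intervals of 1 SE around the 6 estimates overlapped, and differences between subunits were not tested. Under the set-adjusted model and its 17 alternatives the 6 changes stayed between -0.27 and -0.12, with no change of sign. The summed CPM of Mcm2 to Mcm7 was 1469.8, 1505, 1871 and 1954 in vehicle replicates 1 to 4 and 1611, 1304, 1314 and 1654 in SC-57461A replicates 1 to 4. Set B libraries were the higher ones in either treatment, and within each set the treated libraries were lower. Mcm5 had 275, 289, 371 and 365 CPM in vehicle and 288, 258, 262 and 295 CPM in treated libraries, and its change differed most of the 6 between the sets (-0.11 in set A, -0.34 in set B), a difference that did not pass its own test (unadjusted p = 0.0838, adjusted p = 0.908). Mcm7 had 266, 269.8, 293 and 316 CPM in vehicle and 263, 230.1, 261 and 263 CPM in treated libraries. It was the only subunit of the ring whose treatments did not overlap over all 8 libraries, by a narrow gap, although its estimate was the smallest of the 6. Mcm2 had 250.3, 249, 305 and 331 CPM in vehicle against 266, 225, 212 and 278 CPM in treated libraries, Mcm3 234, 244, 297 and 319 against 261, 212, 198 and 269, and Mcm4 212, 219, 276 and 276 against 248, 182, 178 and 257. Each of these 3 was higher in set B than in set A and lower in treated than in vehicle libraries of the same set. Cdc6, the loader ATPase, was at 119.9, 118, 103 and 114 CPM in vehicle and 90.0, 101, 123 and 94.8 CPM in treated libraries, which overlapped in set A, and its change was -0.16 ± 0.078 (adjusted p = 0.260).

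Among the genes that turn the loaded ring into a moving helicase, Mcm10 fell in the set-adjusted model and the other 2 did not pass. Mcm10 (chr2:4989714-5012791, minus strand), a scaffold needed for helicase activation, measured 69.5, 69.0, 78.5 and 84.7 CPM in vehicle and 69.4, 54.3, 53.7 and 64.2 CPM in SC-57461A replicates 1 to 4. The highest treated value, in replicate 1, lay within the vehicle range, and both treated libraries of each set were below its vehicle libraries. The set-adjusted change was -0.32 ± 0.063, 20.1% lower (adjusted p = 0.0145), and the sets alone gave -0.35 (A) and -0.29 (B). Cdc45, which joins the ring at the start of S phase, had 92.2, 91.6, 101 and 90.4 CPM in vehicle and 87.6, 88.8, 102 and 96.6 CPM in treated libraries, intermingled, and a change of 0.00030 ± 0.072. Gins2, a subunit of GINS, gave -0.038 ± 0.086, with 0.076 in set A and -0.15 in set B, of opposite sign. Whether Mcm10 differs from Cdc45 or Gins2 in its response was not tested.

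**Figure D3:**
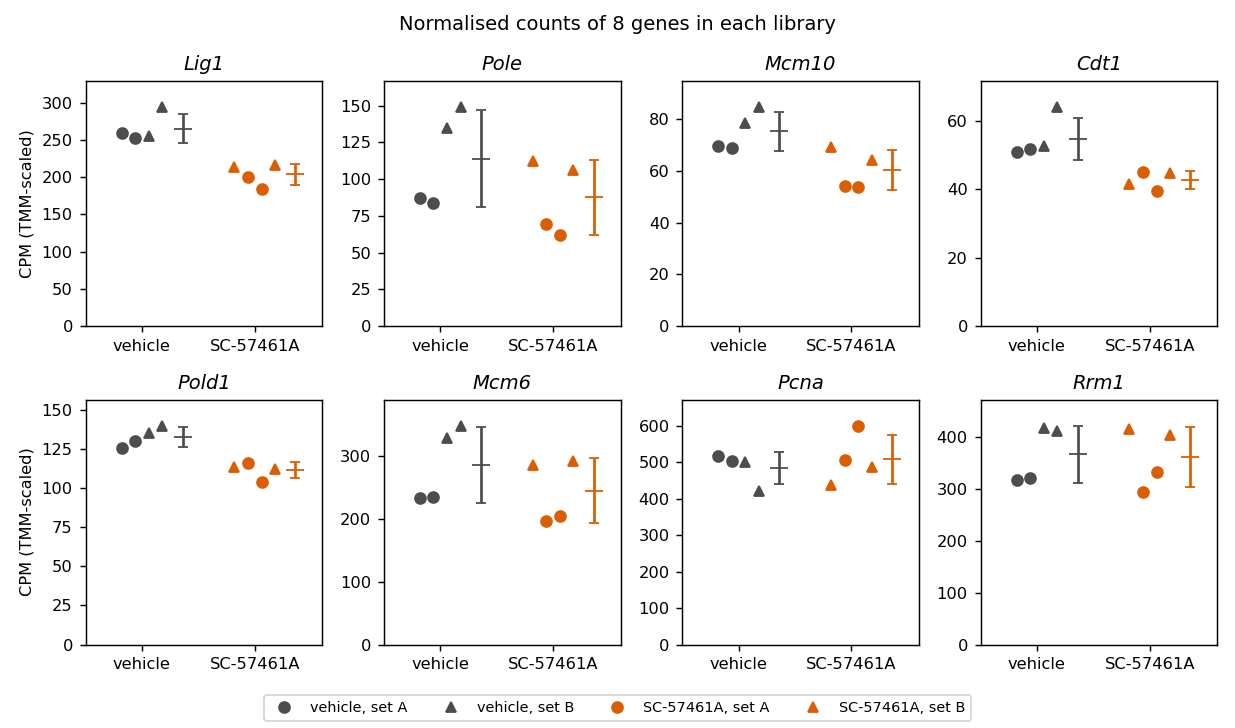
TMM-scaled CPM (linear axis from 0) of 8 genes in each library, replicates 1 to 4 from left to right in each treatment, circles for set A and triangles for set B, with the mean ± SD of 4 libraries at the right of each group. The 6 genes that fell in the set-adjusted model are followed by Pcna and Rrm1, whose treatments intermingle; in Pole and Mcm6 the distance between the sets is larger than that between the treatments.

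At the fork, Lig1, Pole and Pold1 fell in the set-adjusted model and the other 6 genes did not pass. Lig1 (chr7:13277283-13311433, plus strand), the ligase that seals Okazaki fragments, had 259.5, 253, 255 and 294 CPM in vehicle replicates 1 to 4 and 214, 200.2, 184 and 216 CPM in SC-57461A replicates 1 to 4. No treated library reached the lowest vehicle library, and the mean went from 265 ± 19.3 to 204 ± 14.7 CPM (SD, n = 4). Its change was -0.38 ± 0.066, 23.3% lower, with an adjusted p of 0.00764 in the set-adjusted model. Set A alone gave -0.41 and set B alone -0.36. Pole (chr5:110286306-110337474, plus strand), the catalytic subunit of the leading strand polymerase epsilon, was at 87.3, 83.9, 135 and 149 CPM in vehicle and 112, 69.8, 62.1 and 106 CPM in treated libraries. Here the sets were further apart than the treatments, and each set by itself showed treated below vehicle. Its set-adjusted change of -0.38 ± 0.066 (23.0% lower, adjusted p = 0.00875) had nearly equal parts, -0.37 (A) and -0.38 (B), and the fit without library set gave an adjusted p of 0.916. Pold1 (chr7:44532746-44548847, minus strand), the catalytic subunit of the lagging strand polymerase delta, measured 125, 129.9, 135 and 139.6 CPM in vehicle and 113, 116, 104 and 112 CPM in treated libraries, with no overlap. Its change was smaller, -0.25 ± 0.062 or 15.8% lower (adjusted p = 0.0424).

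Pola1, the catalytic subunit of the priming polymerase alpha, did not pass (-0.070 ± 0.073, adjusted p = 0.629), and neither did its partner Prim1, the small primase subunit (0.013 ± 0.073, adjusted p = 0.940). Pcna, with 518, 503, 500.4 and 421 CPM in vehicle and 437, 507, 600.1 and 488 CPM in treated libraries, had its highest value in a treated and its lowest in a vehicle library, and a change of 0.062 ± 0.080 (adjusted p = 0.707). Fen1, the nuclease that trims the flaps Lig1 then seals, had the largest positive estimate of the 32, 0.14 ± 0.068 (adjusted p = 0.257), from 119.996, 128, 139 and 136 CPM in vehicle and 137, 140.1, 153 and 146 CPM in treated libraries. Its treated libraries were the higher ones in set A and intermingled with vehicle in set B. Rpa2, part of the single-strand binding complex, and Tipin, partner of the fork protein Timeless, lay at -0.015 ± 0.070 and -0.0054 ± 0.078.

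The remaining roles held no called gene, and in most of them vehicle and treated libraries intermingled. Of the chromatin and histone genes, Chaf1b (a subunit of the assembly factor CAF-1) gave -0.089 ± 0.078, Uhrf1 (which brings the methyltransferase Dnmt1 to new DNA) -0.078 ± 0.059 and Slbp (which binds histone mRNA) -0.032 ± 0.079. Uhrf1 measured 315, 313, 373 and 394 CPM in vehicle and 364, 314, 285 and 357 CPM in treated libraries, which met in set A and separated only slightly from each other in set B. Of the nucleotide supply genes, Rrm1, the large subunit of ribonucleotide reductase, had 317, 320.2, 416 and 412 CPM in vehicle and 416, 294, 333 and 404 CPM in treated libraries. Its values were high in set B and low in set A in either treatment (-0.020 ± 0.061), and Rrm2 (-0.061 ± 0.058) and Tyms, the thymidylate synthase (0.081 ± 0.069), did not pass either. Tyms had 79.7, 86.0, 67.2 and 67.8 CPM in vehicle and 67.0, 86.7, 98.5 and 68.1 CPM in treated libraries, with set A the higher set. Of the G1/S genes, the transcription factor E2f1 gave 0.049 ± 0.080, the cyclins Ccne1 and Ccne2, which activate Cdk2, -0.043 ± 0.080 and 0.046 ± 0.13, and Dtl -0.042 ± 0.071. E2f1 itself was at 29.5, 35.5, 38.7 and 42.9 CPM in vehicle and 39.9, 32.7, 35.6 and 43.3 CPM in treated libraries, and Ccne2, whose standard error was the widest of the 32, at 59.0, 56.3, 51.6 and 32.7 and 45.6, 49.3, 59.6 and 49.5 CPM. Set B was the higher for E2f1 and the lower for Ccne2 in most libraries, without a separation of the treatments. Rad51ap1, a factor of homologous recombination, had 39.5, 37.5, 41.7 and 43.8 CPM in vehicle and 39.7, 31.8, 33.3 and 40.1 CPM in treated libraries. Its estimates in sets A and B were -0.24 and -0.10, and it did not pass (-0.17 ± 0.067, adjusted p = 0.159), and Exo1 gave -0.058 ± 0.086. Adjusted p-values of these 12 genes were 0.159 to 0.891.

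The calls differ in how much they rest on single libraries. In the set-adjusted model the count of lower members was 2 without vehicle replicate 1, 2 without vehicle replicate 2, 5 without vehicle replicate 3, 2 without vehicle replicate 4, 3 without SC-57461A replicate 1, 6 without SC-57461A replicate 2, 5 without SC-57461A replicate 3 and 1 without SC-57461A replicate 4. In the same order, the 804 calls over all tested genes, in either direction, became 325, 262, 973, 329, 422, 879, 503 and 249. A lost call of a member thus came mostly in fits that called fewer genes in all. Lig1 passed in all 8 of these fits and in all 17 alternatives (adjusted p 4.90e-07 to 0.0445). Pole passed in 16 of 17, the exception being the fit without SC-57461A replicate 4 (adjusted p 0.0578). Mcm10 lost its call without vehicle replicate 1, 2 or 4 or SC-57461A replicate 4 (adjusted p 0.0504 to 0.0803), and Cdt1 without vehicle replicate 1, 2 or 4 or SC-57461A replicate 1, 3 or 4 (adjusted p 0.0606 to 0.111). Mcm6 did not pass without vehicle replicate 1, 2 or 4 or SC-57461A replicate 1, 2 or 4 (adjusted p 0.0564 to 0.166), and Pold1 not without vehicle replicate 1, 2, 3 or 4 or SC-57461A replicate 1, 3 or 4 (adjusted p 0.0566 to 0.174). Mcm3 entered without SC-57461A replicate 2 (adjusted p = 0.0468) and Mcm5 without SC-57461A replicate 3 (0.0485). With 2 libraries per treatment, set A alone and set B alone called none of the 32. Of all tested genes, they called 98 of 15710 and 102 of 14973. In set A 71.9% of the 32 were negative and in set B 81.25%, against 49.8% and 49.7% of all tested genes. Of the 32, 20 genes were negative in both sets and 3 positive in both, shares that were not computed over all tested genes. For no gene of the 32 did a difference in the change between the sets pass its test (interaction of treatment and set in edgeR, with none at an unadjusted p under 0.05 and a lowest adjusted p of 0.908).

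For 26 of the 32 genes the estimated difference between the library sets was larger in size than that between the treatments. Set B stood above set A for Pole by 0.73 on the log2 scale, for Mcm6 by 0.53, for Pola1 by 0.49 and for Mcm4 by 0.42, and below it for Gins2 (-0.63), Tipin (-0.45), Tyms (-0.38) and Ccne2 (-0.33). The median over the 32 was 0.14. As a description across genes, which share their libraries, this difference had a Spearman rho of 0.46 with the longest annotated transcript (n = 32), against 0.38 over 14962 tested genes. The treatment change had a rho of -0.36 with length and -0.34 with GC content among the 32, and -0.23 and -0.14 over all. The 6 genes that fell had a median transcript of 3925.5 bases and 52.1% GC, the other 26 of 3067 bases and 47.9% GC. With an offset for length in each library 6 genes were lower (Mcm3 in, Mcm6 out), and with an offset for length and GC 9 were, namely Lig1, Pole, Mcm10, Cdt1 and Mcm2 to Mcm6. Pold1, the most GC-rich of the 6 at 61.0%, then had a change of -0.14 in place of -0.25 and an adjusted p of 0.105.

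**Figure D4:**
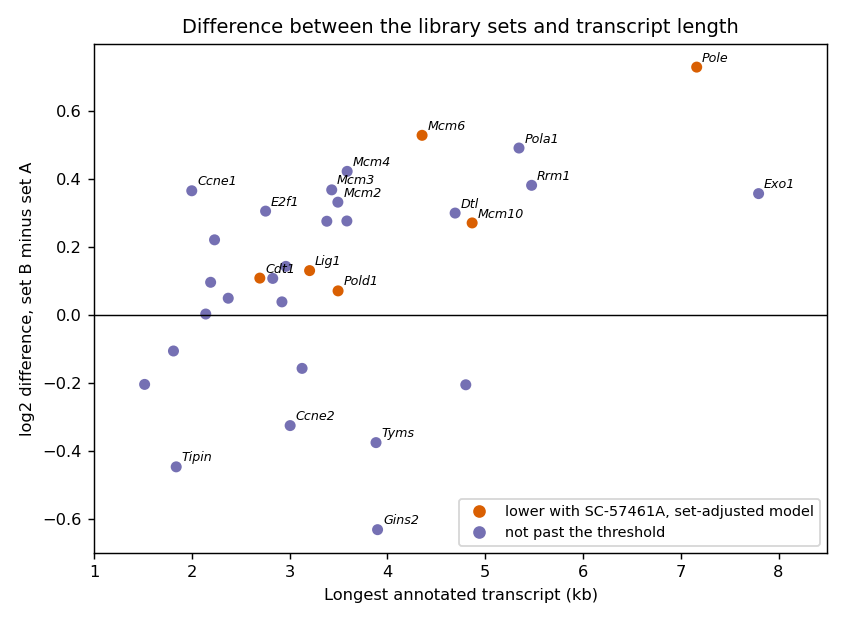
log2 difference between the library sets (set B minus set A, from the set-adjusted model) against the longest annotated transcript in kb, 1 point per gene, orange for the 6 genes lower with SC-57461A. Pole, at 7163 bases, has the largest difference, and Gins2 and Tipin lie lowest.

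Set beside the promoter words, the 11 genes with an E2F word had a median set-adjusted change of -0.22, with 11 of 11 below 0, and the 15 with a promoter entry but no such word had -0.020, with 9 of 15 below 0. Of the 6 genes that fell, 5 had a promoter entry, and 4 of those 5 held an E2F word (Lig1, Pold1, Cdt1 and Mcm6), against 7 of the 21 others. Mcm10 held 3 CCAAT words and no E2F word. Word and role overlap: Mcm3, Mcm5, Mcm6, Mcm7, Cdc6 and Cdt1 carry a word and are licensing genes. All 8 licensing genes lay below 0, among them Mcm2, which has a promoter entry and no E2F word. The changes of all tested genes with an E2F word were not looked at. This is a description of 26 promoters, not a test. Some counts could include reads of neighbours, since no source used here gives the strand setting of the counting. Fen1 overlaps the antisense gene Gm10143 (33 to 339 counts per library) and Tmem258, Gins2 overlaps Gse1 on the opposite strand (2281 to 7312 counts), Ccne2 overlaps Ints8, and Lig1 overlaps Zswim9 (393 to 620 counts). Mcm7 overlaps Cops6 on the opposite strand by 64 bases (4963 to 12536 counts). The protein-coding Gm20388, which has no counts of its own here, overlaps Cdt1 on the same strand by 5540 bases and Gins2 on the opposite strand. For Cdt1 a strand setting could not separate the reads. Pcna has a near-identical pseudogene, Pcna-ps2 (225 to 424 counts), and Mcm7 another, Gm5487, so these values are uncertain to that extent.

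The other genes of the pathway were read from 7 lists, and no gene of any list passed in the edgeR fit without library set. In the set-adjusted model the 34 other polymerase, clamp loader and fork genes held 5 lower (14.7%, against 2.5% of all tested genes) and 0 higher (median -0.051). Timeless, which couples the helicase to the polymerases as partner of Tipin, fell from 51.4, 55.1, 71.5 and 80.4 CPM in vehicle to 52.6, 34.3, 31.9 and 52.4 CPM in treated libraries, without overlap within either set. Its change of -0.61 ± 0.071 (adjusted p = 0.000501) passed in all 17 alternatives and was larger in size than any of the 32 estimates. Dnmt1, the maintenance methyltransferase, gave -0.36 ± 0.075 (0.0179), Chaf1a, the large CAF-1 subunit, -0.28 ± 0.066 (0.0346) and Clspn, a checkpoint mediator at forks, -0.26 ± 0.063 (0.0380). The fifth, Pold3, an accessory subunit of polymerase delta, was named after its value was seen (-0.25 ± 0.063, 0.0412). Leaving out single libraries changed the count of 5 to 1 without vehicle replicate 1, 2 or 4 or SC-57461A replicate 4, to 2 without SC-57461A replicate 1 or 3 and to 4 without SC-57461A replicate 2. Origin recognition and firing (20 genes, median -0.047) held no called gene; the smallest p-values belonged to Orc1 (-0.33 ± 0.088, adjusted p = 0.0510), Donson, Ticrr and Orc2 (0.0868, 0.140 and 0.140).

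Among 27 genes of nucleotide supply 1 rose (3.70%) and none fell, shares near the 2.83% and 2.5% of all tested genes. Their median change was 0.071, above that of all tested genes (0.0044). Shmt2, a mitochondrial enzyme of one-carbon metabolism, gave 0.30 ± 0.066 (adjusted p = 0.0246) and did not pass without vehicle replicate 1 or 2 or SC-57461A replicate 1 or 4 (adjusted p 0.0724 to 0.113). Cad, of pyrimidine synthesis, had -0.32 ± 0.11 (0.106), and Ppat and Mthfd2 had 0.18 and 0.16 (0.147 and 0.154). Of 32 G1/S regulators 2 rose and 2 fell, 6.25% in either direction (median -0.051). Cdkn1a, the Cdk inhibitor p21, rose from 219, 223, 129 and 119.8 CPM in vehicle to 189, 318, 307 and 190.3 CPM in treated libraries, a change of 0.55 ± 0.060 (adjusted p = 0.000259). Within each set its treated libraries were the higher, and set A lay above set B in both treatments. Myc, a transcription factor of growth, rose by 0.59 ± 0.097 (0.00582), and both passed in all 17 alternatives. E2f2, an activating E2F, fell by 0.38 ± 0.082 (0.0228) and E2f8, a repressing one, by 0.49 ± 0.11 (0.0309). E2f2 did not pass without vehicle replicate 1, 2 or 4 or SC-57461A replicate 1 or 4 (adjusted p 0.0517 to 0.0915), and E2f8 not without vehicle replicate 1, 2 or 4 or SC-57461A replicate 3 or 4 (adjusted p 0.0546 to 0.115).

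Among 32 genes of replication stress and homologous recombination 2 fell (6.25%, against 2.5% of all tested genes; median -0.079): the helicase Blm (-0.38 ± 0.079, adjusted p = 0.02004) and Fanci of the Fanconi pathway (-0.36 ± 0.082, 0.0269). Blm lost its call without vehicle replicate 1, 2 or 4 or SC-57461A replicate 4 (adjusted p 0.0604 to 0.0801), and Fanci without vehicle replicate 1, 2 or 4 or SC-57461A replicate 1, 2 or 4 (adjusted p 0.0541 to 0.128). Brca2 and Rmi2 did not pass (0.0703 and 0.0708). Of 33 tested histone genes, which share near-identical copies and are therefore uncertain, Hist1h1c, a linker histone, fell (-0.33 ± 0.068, 0.0183), except without vehicle replicate 2 or 4 or SC-57461A replicate 1 or 4 (adjusted p 0.0554 to 0.0781). That 1 gene is 3.03% of the histones, near the share of all tested genes. The histone median was -0.16, with -0.057 in set A alone and -0.32 in set B alone. Between the sets the histones differed far more, with a median of -1.33 for set B minus set A. Hist1h2bl, Hist3h2a and Hist1h2bg did not pass (0.102, 0.105 and 0.155). Of 40 genes of G2 and mitosis 2 fell (5%, against 2.5% of all tested genes; median -0.065). Mki67, the Ki-67 proliferation antigen, fell by 0.36 ± 0.088 (0.0398) and the cyclin Ccnb2 by 0.25 ± 0.063 (0.0425). Mki67 did not pass without vehicle replicate 1, 2 or 4 or SC-57461A replicate 2, 3 or 4 (adjusted p 0.0683 to 0.138), and Ccnb2 not without vehicle replicate 1, 2, 3 or 4 or SC-57461A replicate 1, 2 or 4 (adjusted p 0.0610 to 0.138); Cdc25b and Foxm1 had adjusted p-values of 0.0741 and 0.109. The medians of these lists and of the 32 genes were set beside that of all tested genes, 0.0044, and were not tested against it.

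**Figure D5:**
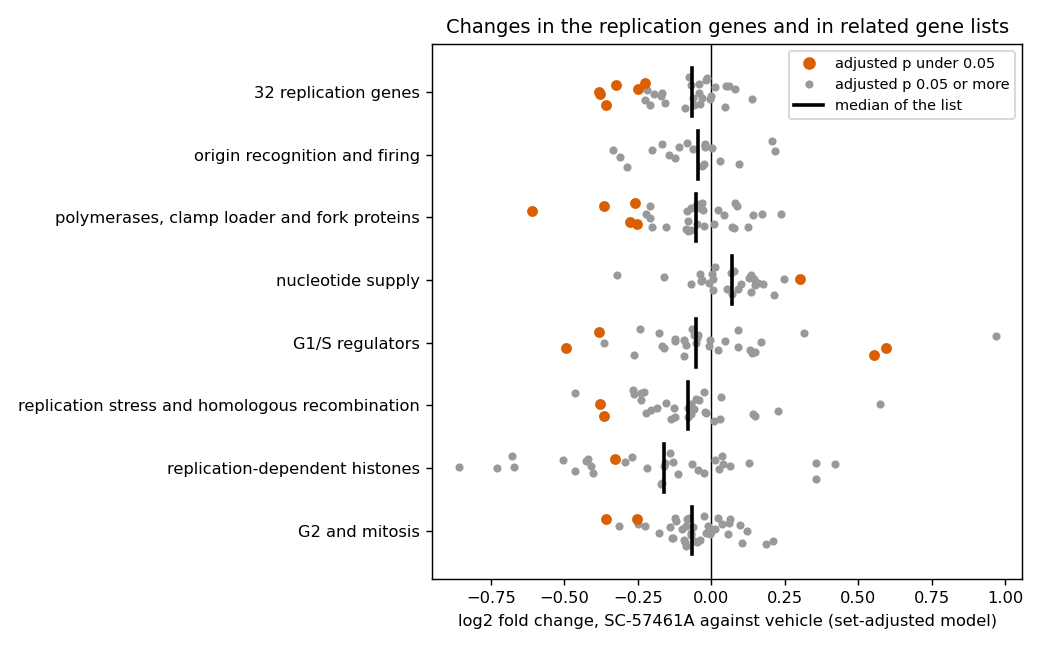
log2 fold change in the set-adjusted model of the 32 genes and of the 7 other lists, 1 point per gene, with vertical bars at the medians and orange points for an adjusted p under 0.05; vertical scatter within a list has no meaning. Timeless is the leftmost orange point, and the orange points right of 0 are Shmt2, Cdkn1a and Myc.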

How the data were processed

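RNA-seq of total RNA was analysed for 8 libraries, grouped by the treatment in the labels. Per the submitters' processing notes, reads were handled with cutadapt 4.7 and FastQC on build mm10; which aligner, annotation, counter and strand setting were used is stated in no source used here. Per the file headers, the authors deposited raw counts and FPKM values per gene and library. Of 25367 genes, 24998 matched a GENCODE M21 symbol; coordinates are those of the table, counted from 1. The 32 genes, the lists and the tests were chosen with earlier results of these data known. Genes of the lists were named by the 4 smallest p-values in the set-adjusted fit; exceptions are marked.

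Counts were filtered with filterByExpr (15095 genes), given TMM factors and tested by the two-sided quasi-likelihood method of edgeR 4.0.16 (R 4.3.3), with treatment alone as the main design and Benjamini-Hochberg adjustment over all tested genes at 0.05. The set-adjusted model adds library set, split at the widest gap of summed FPKM. Its p-values take the sets as known, although they were drawn from these same libraries. Alternatives were RLE factors, library totals, no filter or 1 CPM in 4 libraries, DESeq2 1.42.0, limma 3.58.1 on log2(FPKM + 1) or log2(FPKM + 0.1) for genes of mean FPKM 1 or more, the replicate number as a block, either set alone, each library left out, and, added after the data were seen, offsets from splines (5 degrees of freedom) on transcript length and GC. A zero count allows up to 3 counts, 0.0422 to 0.0633 CPM by library totals without TMM factors. Chi-square divided by its degrees of freedom, over the 28 pairs of libraries, was 15.8 to 534, far above the value of about 1 that 2 copies of 1 library would give. The fits were tested on simulated data. Near-identical copies were sought with BLAST 2.17.0 (at least 95% identity over 50% of the transcript). Plots were made with matplotlib 3.10.9, and tables with pandas 2.3.3 and scipy 1.17.1 in Python 3.11.15, with numpy 2.4.6.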

Additional observations from a re-analysis of the deposited data

Results flagged for a closer look

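Each gene was looked at for a library far from the other 3 of its treatment, 64 comparisons in all. Chance alone would mark about 1 in 20, and the 3 that were marked are near that share. Lig1 was highest in vehicle replicate 4, at 294 CPM against 253 to 259.5 in the others, and Cdt1 was highest in the same library, at 63.9 CPM against 50.7 to 52.6. Without that library the set-adjusted test of Lig1 still passed (adjusted p = 0.0336) and that of Cdt1 did not (0.0857). Mcm7 was lowest in SC-57461A replicate 2, at 230.1 CPM against 261 to 263. Whether anything sets these libraries apart for these genes was not tested.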

How the results depend on the processing

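The count of lower members, 0 without library set, was 1 with DESeq2, 6 in the set-adjusted model and 10 with DESeq2 and library set. The set-adjusted count of 6 became 10 with DESeq2, 10 with limma, 8 with library totals, 4 without a filter and 1 to 6 when single libraries were left out; no member rose in any fit. The cause of these differences was not tested. Over all tested genes the calls without library set were 50, and 195 with DESeq2. The set-adjusted 804 became 1505 with DESeq2, 739 with limma, 725 with library totals and 532 without a filter. That count was 969 with the length offset, 1288 with the length and GC offset and 249 to 973 with a library left out. The median change of the members was -0.14 to -0.050 over the fits without library set and -0.12 to -0.052 over the set-adjusted ones. No called value changed sign; uncalled ones did in 81 of 672 values without and 44 of 544 with library set. Correlations of same-numbered libraries were -0.587 to 0.635 in 4 pairs, computed without library set. Replicates 2 and 4 join libraries of the same set, and replicates 1 and 3 join libraries of different sets. The correlations therefore cannot show whether same-numbered libraries varied together. With the replicate number as a block 0 members and 15 genes in all passed. In the set-adjusted model with the block 8 members and 1139 genes in all did. Every member had at least 1102 counts in each library.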
